A study of Mus musculus with 8 samples.

Results

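The Ces1 carboxylesterase cluster is a tandem array of related mouse genes on chromosome 8. The chromatin loops listed there in liver after pull-down of tagged REV-ERBα were described. Its 6 members were Ces1b, Ces1c, Ces1d, Ces1e, Ces1f and Ces1g, of 21887 protein-coding genes. A loop belonged to the cluster when either of its 2 anchors fell in the body of a member or within 5 kb of it, and a loop touching several members was counted once. In all, 98 of 277517 listed loops met this rule over 6 libraries. The members were chosen by their loop and PET counts in the knock-in libraries, so their levels at ZT10 and ZT22 are given as a description with no test.

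The loops came from in-situ ChIA-PET of mouse liver, in which cross-linked chromatin is digested and re-joined inside the nucleus and then pulled down, here through an HA tag on REV-ERBα, a repressor of the circadian clock. A paired-end tag (PET) is a sequenced fragment whose ends map to both anchors of a loop. The knock-in mice were REV-ERBa3HA/3HA, carried the tag on their own protein and received no AAV. They gave 1 library at zeitgeber time ZT10 and 1 at ZT22. The other 4 libraries were all from ZT10 and from REV-ERBaf/fREV-ERBbf/f mice, in which both REV-ERB genes are floxed. All of them received AAV8-TBG-Cre, which expresses Cre from TBG, a hepatocyte promoter. AAV8-TBG-3HA-REV-ERBa-delhIDR, named as lacking the hIDR, was added in 2 libraries (AAV dhIDR), and AAV8-TBG-3HA-REV-ERBa-WT in 2 (AAV WT). The tagged protein of these mice therefore came from the hepatocyte promoter, which other liver cells do not use. Deletion of the floxed genes was not checked here. The sources used here give no ages. Samples pulled down with anti-CTCF, 2 of 8, were not analysed here.

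Carboxylesterases of the Ces1 family are serine hydrolases of the endoplasmic reticulum that split ester, amide and thioester bonds in lipids, drugs and pesticides. Hepatocytes make them in large amounts, and mouse members release fatty acids from stored triacylglycerol and affect the assembly of very-low-density lipoprotein (VLDL). Ces1d is the best studied hepatic triacylglycerol hydrolase, Ces1f is a related hydrolase of lipid droplets, and Ces1g takes part in hepatic lipid secretion. Ces1e is known as egasyn, which holds β-glucuronidase in the endoplasmic reticulum, and Ces1c is the esterase secreted into mouse plasma.

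The 6 genes lie side by side between 93056725 and 93337209 of chromosome 8 (mm10, positions from RefSeq's GRCm38.p6 annotation), a stretch of 280 kb. Ces1b runs over 93056725 to 93080017, Ces1c over 93099015 to 93131283, and Ces1d over 93166072 to 93197804. Ces1e runs over 93201218 to 93229631, Ces1f over 93256236 to 93279766, and Ces1g over 93302369 to 93337209. The gaps between neighbours measured 19.0, 34.8, 3.41, 26.6 and 22.6 kb from Ces1b onwards. Ces1d and Ces1e are so close that their 5-kb margins overlap, so a loop at the high-coordinate end of Ces1d also counts for Ces1e. The paralogs Ces1a (93020214 to 93048192) and Ces1h (93351840 to 93379777) flank the array and are no members.

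Promoter sequence from RefSeq (GRCm38.p6) was at hand for Ces1b, Ces1c, Ces1e and Ces1g, each window reaching from 250 bases before to 50 bases after the gene start. All 4 are shown because a loop anchor of the ZT10 knock-in library overlapped each of them. All 4 genes are on the minus strand, so that their starts are at the high-coordinate end. The windows lie at chr8:93079968-93080267 (Ces1b), chr8:93131234-93131533 (Ces1c), chr8:93229570-93229869 (Ces1e) and chr8:93337160-93337459 (Ces1g), and are printed 5′ to 3′ on that strand. Capitals mark the 16 positions that are identical in all 4 within the 24-base block they share.
Ces1b: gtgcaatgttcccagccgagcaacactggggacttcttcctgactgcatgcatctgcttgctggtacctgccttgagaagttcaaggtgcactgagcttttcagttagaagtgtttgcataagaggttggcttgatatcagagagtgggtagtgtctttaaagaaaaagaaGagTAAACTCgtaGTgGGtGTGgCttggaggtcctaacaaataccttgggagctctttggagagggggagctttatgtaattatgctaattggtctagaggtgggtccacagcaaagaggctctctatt
Ces1c: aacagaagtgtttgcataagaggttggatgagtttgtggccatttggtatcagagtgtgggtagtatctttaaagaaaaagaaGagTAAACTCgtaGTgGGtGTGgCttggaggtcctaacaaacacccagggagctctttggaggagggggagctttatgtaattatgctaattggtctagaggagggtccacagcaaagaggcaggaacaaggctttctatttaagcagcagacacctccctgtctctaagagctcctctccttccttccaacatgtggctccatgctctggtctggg
Ces1e: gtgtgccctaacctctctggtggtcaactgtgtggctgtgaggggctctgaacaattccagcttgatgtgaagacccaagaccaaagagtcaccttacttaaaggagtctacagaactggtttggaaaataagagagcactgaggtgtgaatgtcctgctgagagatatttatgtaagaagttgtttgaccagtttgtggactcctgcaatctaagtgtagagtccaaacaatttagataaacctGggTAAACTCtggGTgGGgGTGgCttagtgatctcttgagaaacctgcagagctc
Ces1g: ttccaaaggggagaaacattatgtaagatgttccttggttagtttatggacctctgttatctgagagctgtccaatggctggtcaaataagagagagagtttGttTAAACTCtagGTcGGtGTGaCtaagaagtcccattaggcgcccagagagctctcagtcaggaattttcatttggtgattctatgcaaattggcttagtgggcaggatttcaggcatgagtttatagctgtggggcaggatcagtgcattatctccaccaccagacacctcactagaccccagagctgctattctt

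The block pattern GNNTAAACTCNNNGTNGGNGTGNC was found in 5 of 32851 promoter windows (0.0152%), on either strand, and all 5 belong to these 4 genes, since Ces1b has 2 annotated windows. The block was found by comparing the 4 windows, so its rarity elsewhere is a description. Counted from the gene start, its first base is at -79 in Ces1b, -167 in Ces1c, -5 in Ces1e and -148 in Ces1g. Ces1b and Ces1c were the closest pair, with 93.3% of 209 aligned bases identical, 182 gap bases and an identical run of 58 bases. The other pairs shared 60.7 to 67.3% of aligned bases, with 76 to 106 gap bases. Their longest identical runs were 8 to 11 bases, and how much unrelated windows would share was not tested.

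The REV-ERB core motif AGGTCA, its direct repeat (AGGTCA, any 2 bases, AGGTCA), the longer RORE and the E-box CACGTG were searched on both strands, and none occurs in these windows. AGGTCA is contained in the repeat and in the RORE. AGGTCA is present in 16.3% of all windows, the RORE in 0.18%, the repeat in 0.00913% and CACGTG in 7.15%. The shorter GGTCA, which lies within AGGTCA, occurs 2 times in the Ces1e window and 1 time in the Ces1g window, against 40.5% of all windows with a match. AGCT, the cut site of the AluI used in the assay, occurs 2 to 4 times per window and is present in 77.6% of all windows.

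Listed PETs numbered 320427 in the ZT10 and 132709 in the ZT22 knock-in library, 178426 and 160635 in AAV dhIDR, and 104161 and 204018 in AAV WT. No listed loop had fewer than 3 PETs, so 0 to 2 PETs remain possible for any loop absent from a list. The ZT10 knock-in library stood apart from the other 5, with a median loop span of 40.1 kb against 524 to 1071 kb, and a median anchor of 1067 bp against 601 to 626 bp. Hepatocyte markers summed to 3041 PETs at ZT10 (1 of 8 at 0, Serpina1a) against 54 at ZT22, 44 and 26 in AAV dhIDR, and 15 and 37 in AAV WT. Most of the ZT10 sum came from the neighbours Fgg (1216) and Fga (1022), and Cps1 had 52 PETs at ZT10 against 25 at ZT22. Kupffer cell markers ran the other way, with 3 PETs at ZT10 (5 of 6 at 0) against 33 at ZT22 and 21 to 78 in the AAV libraries. So did stellate markers, with 23 at ZT10 against 74 at ZT22 and 22 to 116 in the AAV libraries. Endothelial markers summed to 113 PETs at ZT10 against 35 at ZT22, cholangiocyte markers to 32 against 18 and lymphocyte markers to 40 against 21. In the AAV libraries they summed to 35 to 90, 0 to 32 and 14 to 50 PETs in that order. These sums rest on loops and do not measure cell numbers, and their part in the results was not tested. Intervals are 95%, cover counting error at most and treat each PET as an independent count. They may be too narrow, since copies of a ligation product may be counted separately and PETs enter in loops of at least 3.

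At ZT10 the cluster was a dense web of short loops centred on Ces1e. The knock-in library listed 74 loops with 425 PETs (exact Poisson interval 386 to 467), or 13.3 of each 10000 listed PETs. In whole liver, fewer cells with a loop and fewer PETs per cell cannot be told apart. Both anchors lay inside the array, margins included, for 63 of the 74 loops (85.1%, Wilson interval 75.3 to 91.5%), and these held 91.3% of the PETs. The median span was 44.9 kb, near the 40.1 kb of all loops of this library. At most 500 kb was spanned by 72 of the 74 loops, and by 88.5% of all loops of the library. There were 36 loops at the floor of 3 PETs and 8 with 10 or more. Loops that touched at least 2 members numbered 40, and 5 touched 3. An anchor in the overlapping margins of Ces1d and Ces1e counts for both genes, so some of the 40 do not join 2 members. All 5 that touched 3 members had such an anchor. Within the gene bodies alone 58 loops with 343 PETs were found, and with a 25-kb margin 75 loops with 430 PETs, so few loops lay just outside the 5-kb limit.

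**Figure D1:**
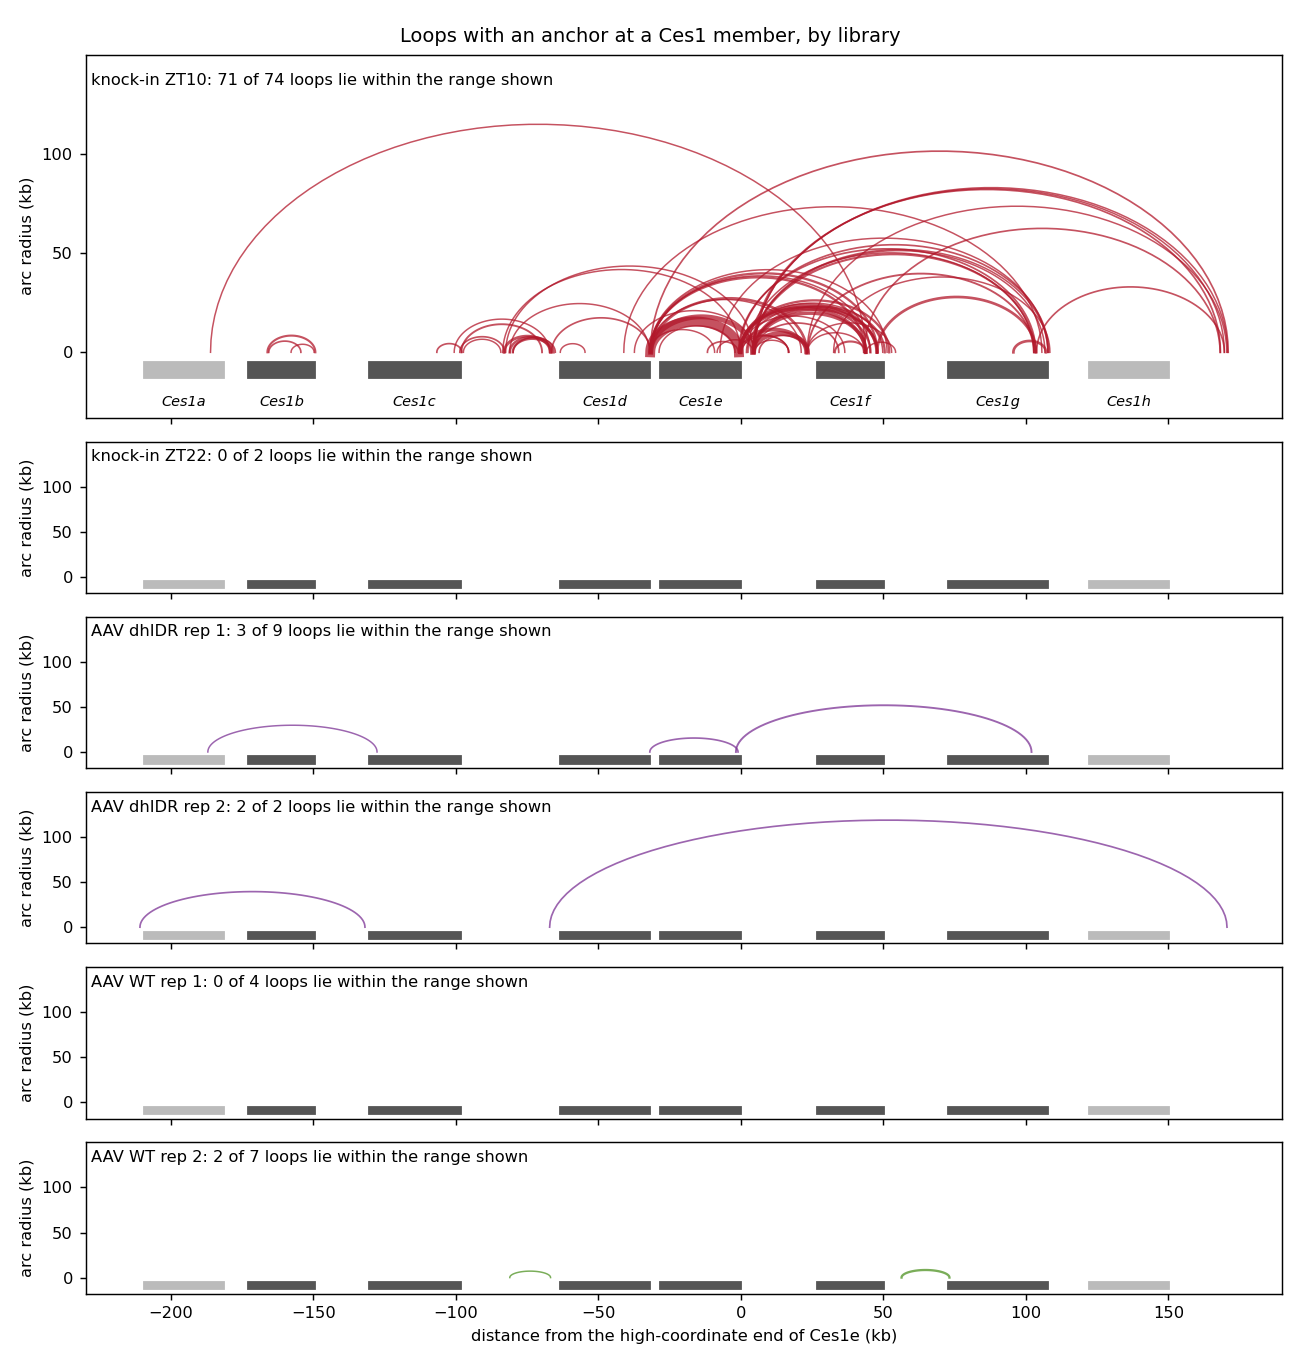
Loops with an anchor at a Ces1 member, 1 panel per library, drawn as arcs over the distance in kb from the high-coordinate end of Ces1e. Arc height is the radius of the arc in kb, line width grows with PETs, dark boxes are the members and pale boxes Ces1a and Ces1h. At ZT10 (74 loops in all) the arcs crowd between Ces1d and Ces1f, and the other libraries, with 2 to 9 loops each, show 3 arcs or fewer in this range.

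All 6 members had a listed PET at ZT10, as did 52.1% of protein-coding genes, a level that the choice of members already used. Per 10 kb of window Ces1e had the most PETs, 76.5 (68.0 to 85.8), from 45 loops with 294 PETs, and it ranked 144 of 21887 genes by PETs. Ces1f followed with 57.0 PETs per 10 kb (49.2 to 65.6) from 29 loops and 191 PETs. Ces1d had 37.6 per 10 kb (32.0 to 44.0) from 22 loops and 157 PETs. These 3 hydrolase genes stand next to each other in the middle of the array. Their counting intervals do not overlap, but the counts were used to choose the members. They also share loops, in part through the overlapping margins of Ces1d and Ces1e, so the order is a description.

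Ces1g at the high-coordinate edge had 13.2 PETs per 10 kb of window (10.0 to 17.0) from 13 loops and 59 PETs. The other edge held the fewest, with Ces1c at 5.91 per 10 kb (3.83 to 8.73; 7 loops, 25 PETs) and Ces1b at 3.90 (2.08 to 6.68; 3 loops, 13 PETs). The intervals of Ces1c and Ces1b overlap, and those of Ces1g and Ces1c do not. Outside the member set, Ces1a had 2.11 per 10 kb (8 PETs), and Ces1h had no listed PET at ZT10. Loops that touched a single member held 32 of the 294 PETs at Ces1e, 29 of 191 at Ces1f, 31 of 157 at Ces1d, 13 of 59 at Ces1g, 22 of 25 at Ces1c and all 13 at Ces1b. The counts of Ces1d, Ces1e, Ces1f and Ces1g thus largely share loops. These loops were counted at both of their ends or, for Ces1d and Ces1e, through an anchor in the overlapping margins.

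Loops between Ces1e and Ces1f held the most PETs, 145 in 18 loops. Ces1d and Ces1e were joined by 78 PETs in 6 loops, Ces1d and Ces1f by 29 in 5, Ces1e and Ces1g by 26 in 7, and Ces1f and Ces1g by 17 in 3. Ces1d and Ces1g shared 3 PETs in 1 loop. Ces1c was tied to the others by a single loop of 3 PETs to Ces1d, and no listed loop joined Ces1b to another member. The 3 loops of Ces1b stayed within its own window. Because the windows of Ces1d and Ces1e overlap, a loop can count for more than 1 pair. Both anchors lay in the Ces1e window for 6 loops with 78 PETs. These include loops of 45 and 20 PETs that also count for Ces1d and Ces1e, so most of those PETs are not internal to Ces1e. The 5 loops given for Ces1d and Ces1f, with 29 PETs, are all among the 18 given for Ces1e and Ces1f.

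**Figure D2:**
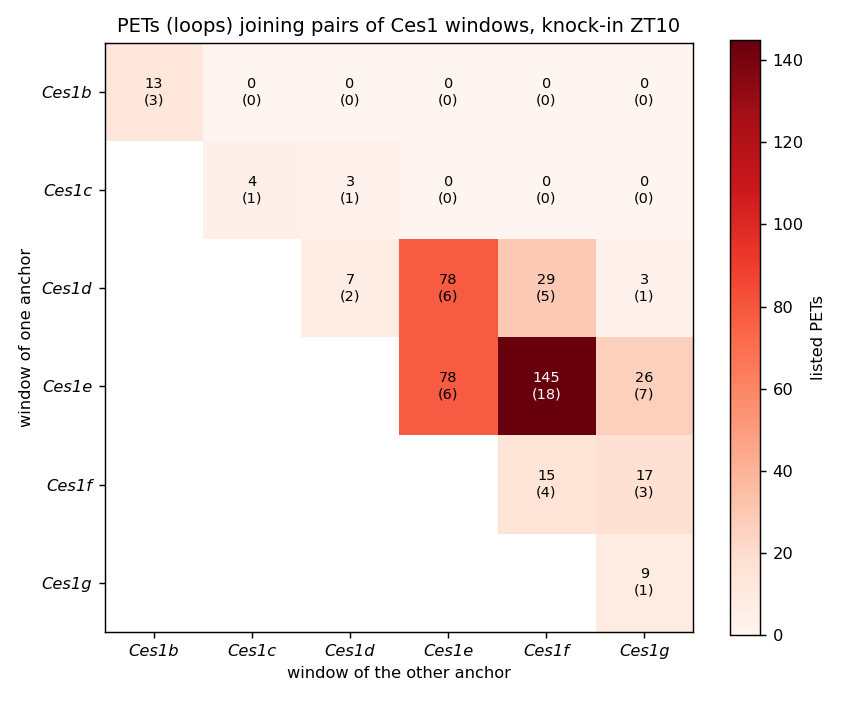
PETs (colour and upper number) and loops (number in brackets) that join the window of one member (rows) to that of another (columns) in the ZT10 knock-in library. On the diagonal both anchors lie in the same window. The windows of Ces1d and Ces1e overlap, so the 45-PET loop between them also counts on the Ces1e diagonal. Ces1e with Ces1f is the darkest cell (145 PETs), and the Ces1b row is 0 apart from its own 13 PETs.

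The loop with most PETs joined 93195534 to 93200032, which covers the high-coordinate end of Ces1d, to 93227721 to 93230072, which covers the Ces1e start, with 45 PETs over 31.1 kb. The next, with 20 PETs, joined 93196576 to 93199250 with 93232448 to 93234930, just beyond the Ces1e start. The third, with 19 PETs, ran from 93233087 to 93235099, in that same place, to 93251947 to 93254072 in the gap before Ces1f. The fourth, with 15 PETs, ran from the Ces1e start at 93228554 to 93230649 to that gap at 93251237 to 93253791. A pair of loops with 13 PETs each tied both of these Ces1e anchors to the body of Ces1f, from 93228133 to 93230308 with 93272358 to 93274184, and from 93233087 to 93235099 with 93272358 to 93274697. Every one of these 6 loops thus had an anchor at the start of Ces1e or within 6 kb beyond it.

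Overlapping anchors of the ZT10 loops were merged to see which places served most loops. An anchor at 93230804 to 93235099, with its middle 3.32 kb beyond the Ces1e start and outside any annotated gene body, took part in 18 loops with 114 PETs. The anchor at 93226953 to 93230649, over the Ces1e start and the promoter printed above, took part in 15 loops with 128 PETs. Another at 93195534 to 93200032, over the high-coordinate end of Ces1d, had 13 loops with 114 PETs. The anchor at 93272284 to 93275736, in the body of Ces1f, had 10 loops with 62 PETs, and that at 93251237 to 93254072, between Ces1e and Ces1f, had 8 with 61. Of the 38 merged anchors in the array, 12 (31.6%) joined 5 or more loops, against 10.9% of 51940 merged anchors of the whole library. The choice of members used their ZT10 loop counts, so the higher share is no independent finding.

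Anchors of ZT10 loops, before merging, overlapped the high-coordinate end of each of the 6 members. They numbered 13 loops (114 PETs) at Ces1d, 11 (114 PETs) at Ces1e, 4 (19 PETs) at Ces1g, 3 (13 PETs) at Ces1c, 2 (9 PETs) at Ces1b and 1 (7 PETs) at Ces1f. For Ces1b, Ces1c, Ces1e and Ces1g that end is the annotated start, whereas the strand of Ces1d and Ces1f was not given in the table used. At the low-coordinate ends Ces1d and Ces1e had 1 loop of 3 PETs each, and the other 4 members had none. Ces1a and Ces1h had no ZT10 anchor over either end. Of the 38 merged anchors in the array, 8 (21.1%) covered an annotated gene end, against 7.59% over the library. The array was laid out around gene bodies and the library as a whole was not, so this difference is a description.

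**Figure D3:**
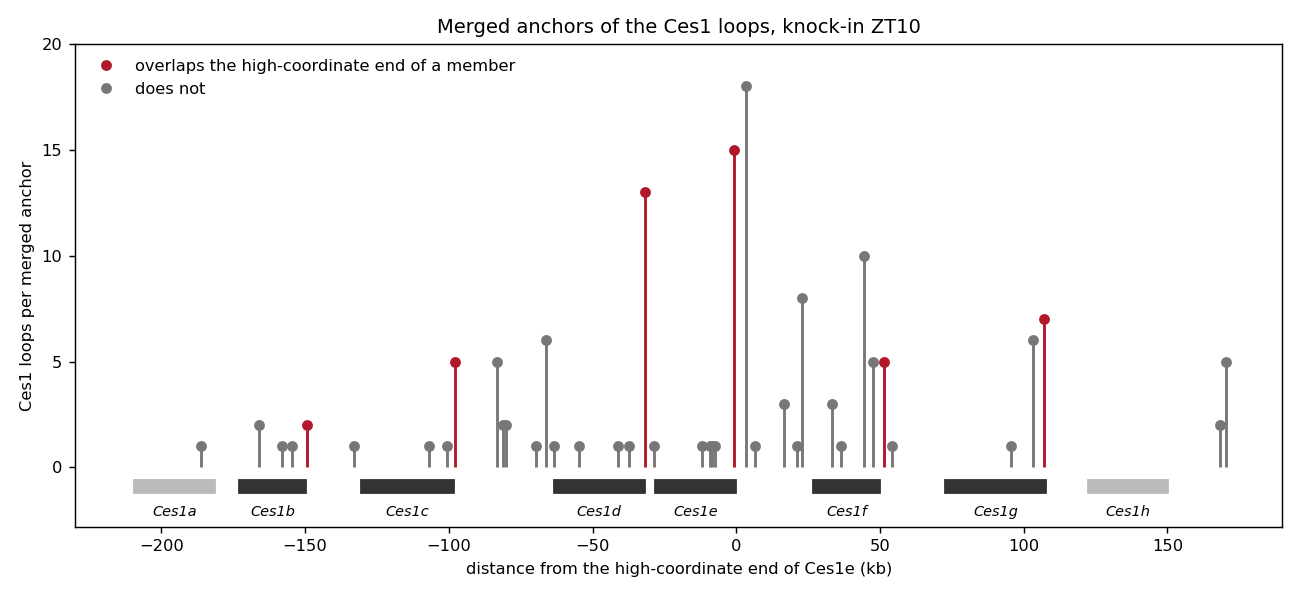
Number of Ces1 loops (vertical axis) at each merged anchor of the ZT10 knock-in library, by distance in kb from the high-coordinate end of Ces1e. Red stems overlap the high-coordinate end of a member, grey stems do not, and boxes are genes (members dark). The highest stems, with 18, 15 and 13 loops, stand just beyond Ces1e, over its start and over the end of Ces1d.

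Of the 11 ZT10 loops that left the array, 7 ended in one place beyond Ces1h. Its anchors at 93397223 to 93398433 (2 loops, 8 PETs) and 93398751 to 93401169 (5 loops, 17 PETs) have their middles 18.1 and 20.2 kb beyond the high-coordinate end of Ces1h and touch no gene body. They were joined to Ces1d, Ces1e, Ces1f and Ces1g, passing over Ces1h, which had no listed PET. A further loop of 3 PETs reached Ces1a from Ces1f. Just 2 loops, of 3 PETs each and both at Ces1c, spanned over 500 kb.

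The ZT10 and ZT22 knock-in libraries ask how the loops change between the phases near the peak and the trough of REV-ERBα. The cluster had 74 loops and 425 PETs at ZT10, against 2 loops and 8 PETs (3.45 to 15.8) at ZT22. Per 10000 listed PETs these were 13.3 (12.0 to 14.6) and 0.603 (0.260 to 1.19), a ratio of 22 (exact interval 11.1 to 51.3). The ZT22 loops were both long and had a single anchor in the array. They joined 93103235 to 93103858 in Ces1c to a place 302 kb away with 5 PETs, and 93303208 to 93303864 in Ces1g to one 4018 kb away with 3.

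Ces1d, Ces1e and Ces1f had 157, 294 and 191 PETs at ZT10 and were not listed at ZT22, so no fold is given. The same held for Ces1b, with 13 PETs at ZT10. Ces1g, the gene linked to lipid secretion, had 59 PETs at ZT10 against 3 at ZT22, a ratio of shares of 8.15 (2.65 to 40.6). Ces1c, the plasma esterase gene, had 25 against 5 PETs, a ratio of 2.07 (0.779 to 6.93) whose interval includes 1. With 1 library a time, these intervals compare 2 libraries and not the times of day.

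**Figure D4:**
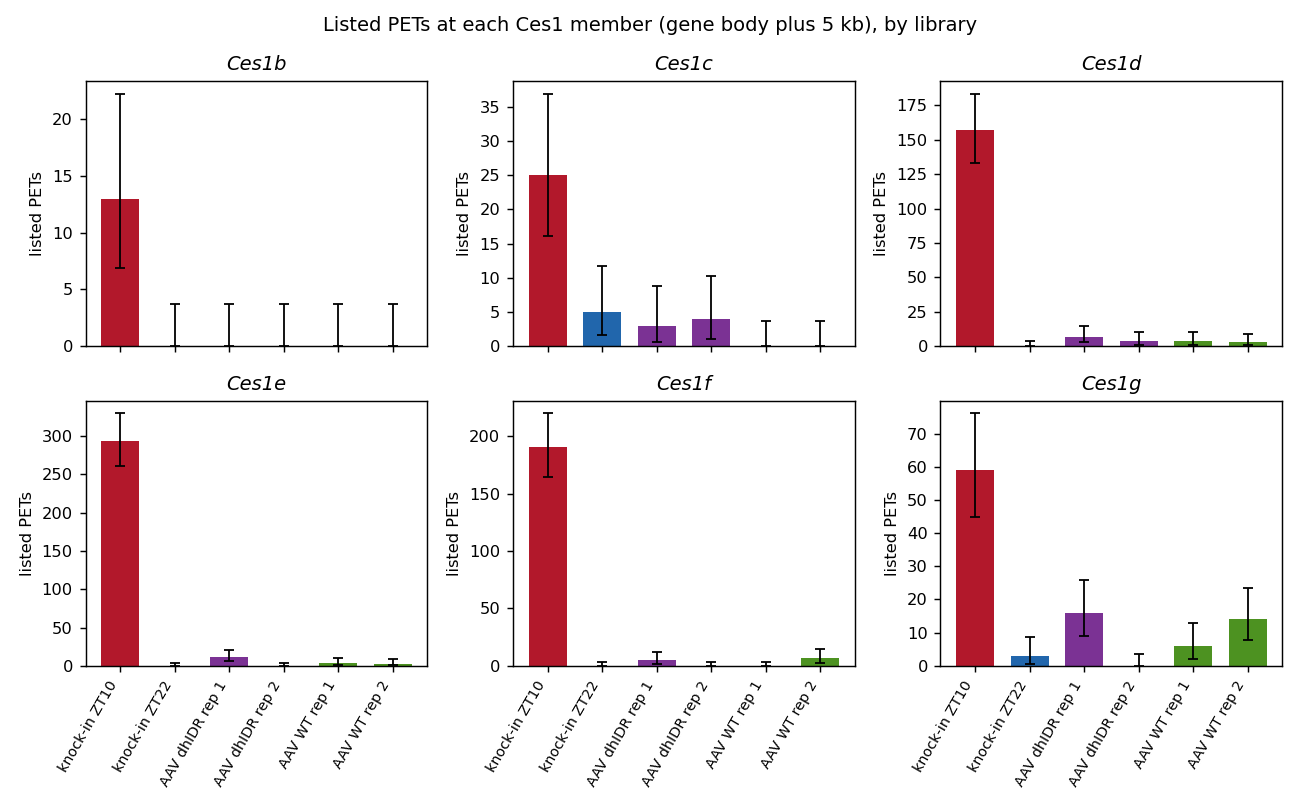
Listed PETs (vertical axis, own scale per panel) at each member in the 6 libraries, in loops with an anchor in the gene body or within 5 kb, with exact 95% Poisson intervals as error bars. The ZT10 knock-in bar is the highest in every panel, from 13 PETs at Ces1b to 294 at Ces1e, and no other library exceeds 16 (Ces1g, AAV dhIDR replicate 1).

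By a rule of at least 30 PETs over both libraries and a share at least 4-fold higher at ZT10, 4 of the 5 members with enough PETs were called, Ces1d, Ces1e, Ces1f and Ces1g, against 39.5% of 3721 genes. A share at least 4-fold lower was found for 16.1% of genes and for no member. The choice of members used this contrast, so nothing is read from that count. The whole library shifted as well, since the median gene with 30 PETs had a log2 ratio of 1.40 (pseudocount 0.5 PETs). The log2 ratio of the cluster was 4.37, and 2.98 relative to that median. Relative to the median gene Ces1g, at a log2 of 1.42, was no longer called, Ces1c turned to -0.46, and ZT10 was the higher side in 43.9% of all calls, whereas scaling by listed PETs gave 71.0%.

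**Figure D5:**
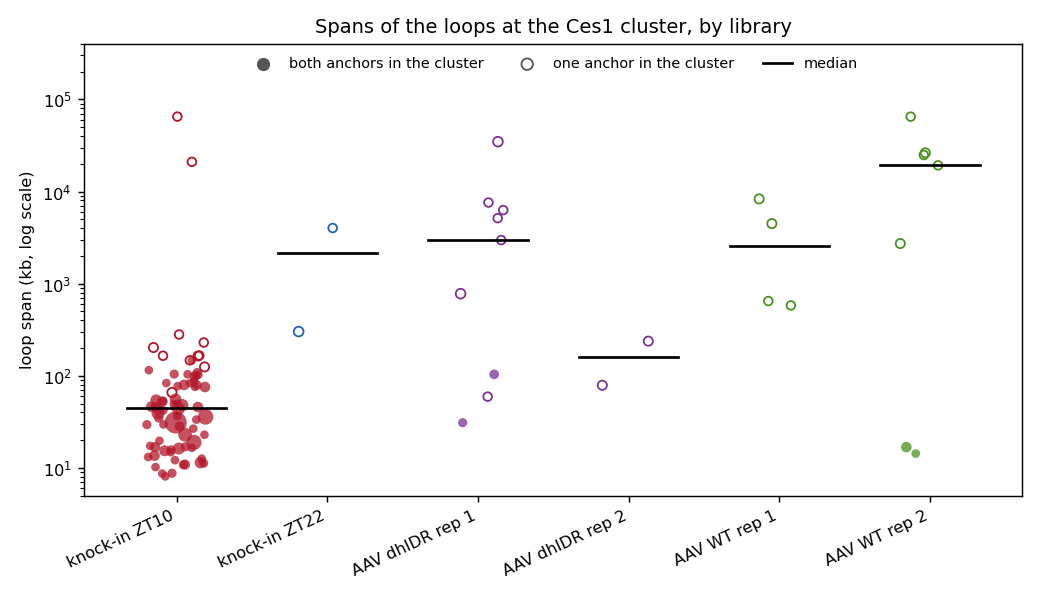
Span in kb (log scale) of each loop at the cluster by library, with filled points for loops with both anchors in the array, open points for 1 anchor there, point area growing with PETs and bars at the medians. The ZT10 knock-in loops gather around 44.9 kb, whereas 16 of the 24 loops of the other libraries span over 500 kb. In those libraries 41.7 to 49.6% of all loops span at most 500 kb, against 88.5% in the ZT10 knock-in library.

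The AAV libraries ask what the hIDR contributes when REV-ERBα is supplied in hepatocytes. The cluster had 34 PETs in 9 loops and 8 PETs in 2 loops in AAV dhIDR replicates 1 and 2, against 14 in 4 and 27 in 7 in AAV WT. Per 10000 listed PETs this was 1.91 and 0.498 in AAV dhIDR, and 1.34 and 1.32 in AAV WT. The AAV dhIDR libraries lie on either side of both AAV WT libraries. Means were 1.20 ± 0.995 in AAV dhIDR and 1.33 ± 0.0146 in AAV WT (SD, n = 2 each). Pooled over replicates, 42 against 41 PETs gave a ratio of shares of 0.931, with a counting interval of 0.591 to 1.47. The log2 ratio, -0.10, was -1.42 without AAV dhIDR replicate 1 (8 against 41 PETs) and 0.52 without AAV dhIDR replicate 2. It was 0.85 over loops spanning at most 500 kb (20 against 10 PETs).

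Ces1g, the member with most PETs here, had 16 and 0 PETs in AAV dhIDR and 6 and 14 in AAV WT. Ces1e had 12 and 0 in AAV dhIDR and 4 and 3 in AAV WT. Ces1d had 7 and 4 in AAV dhIDR and 4 and 3 in AAV WT. In these 3 genes the shares of the groups overlap, and AAV dhIDR replicate 1 held most of the PETs of its group. Ces1f had 5 and 0 in AAV dhIDR and 0 and 7 in AAV WT. Ces1c had 3 and 4 in AAV dhIDR and was not listed in AAV WT, and Ces1b was listed in none of the 4.

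Both AAV dhIDR libraries lay above both AAV WT libraries, by share of listed PETs, for 1 member, Ces1c, against 13.3% of the 18946 genes that these libraries list at all. They lay below for no member, against 7.06% of genes. Loops with fewer than 3 PETs are unlisted, so the Ces1c values could differ from 0 in AAV WT by PETs not seen. In edgeR's quasi-likelihood test over 4754 genes, Ces1g was the 1 member with enough PETs to be tested. Its log2 difference, AAV dhIDR minus AAV WT, was -0.50 (SE 1.51, adjusted p = 1.00). It was 0.45 without AAV dhIDR replicate 2. Over all genes 0 were called higher in AAV dhIDR and 1 lower (0.021%), and an unadjusted p under 0.05 was reached by 128. That gene was Sfi1, no member and named after its values were seen, with 156 and 102 PETs in AAV dhIDR and 937 and 889 in AAV WT (log2 -3.13, SE 0.28, adjusted p = 0.00276 in edgeR). The labels do not say that replicates came from separate animals, so these p-values measure the spread between libraries, which may be technical. Members had 0 to 16 PETs per AAV library.

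The AAV WT libraries and the ZT10 knock-in library both hold full-length tagged REV-ERBα at ZT10. The cluster had 1.34 and 1.32 PETs per 10000 listed in AAV WT, against 13.3 at ZT10 in the knock-in. Ces1e had 4 and 3 PETs in AAV WT against 294 in the knock-in, Ces1f 0 and 7 against 191, and Ces1d 4 and 3 against 157. Ces1g had 6 and 14 against 59. Loops over 500 kb numbered 4 of 4 and 5 of 7 in AAV WT, against 2 of 74 in the knock-in. The whole lists differed as well, since 43.5 and 44.4% of all AAV WT loops spanned at most 500 kb, against 88.5% in the knock-in. Mouse line, source of the tagged protein and library cannot be told apart in this comparison.

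Some loops of the AAV libraries lay at places that the ZT10 knock-in loops also used. Of 22 AAV loops at the cluster, 2 (9.09%, Wilson interval 2.53 to 27.8%) overlapped a ZT10 loop at both anchors, against 866 of 179055 AAV loops overall (0.484%). Over loops of at most 500 kb it was 2 of 7 (28.6%) at the cluster, against 1.09% of 79377 overall. The cluster was chosen for its many ZT10 loops, so a share above that of all loops is no independent finding. In AAV dhIDR replicate 1, a loop of 4 PETs from 93197344 to 93197938 with 93228313 to 93228884 lay inside the 45-PET loop that ties the Ces1d end to the Ces1e start. In AAV WT replicate 2, a loop of 3 PETs from 93147851 to 93149162 with 93162126 to 93163506, between Ces1c and Ces1d, matched 2 ZT10 loops of 8 and 7 PETs. With 5 kb allowed between anchors 3 of 22 matched, against 1.89% of all AAV loops, the third being an AAV dhIDR replicate 1 loop of 5 PETs from Ces1e (93227552 to 93228156) to Ces1g (93331260 to 93331895). Neither ZT22 loop matched, where 1.29% of all ZT22 loops did. Replicates shared no cluster loop in AAV dhIDR (9 and 2 loops) or in AAV WT (4 and 7), and over the whole lists 0.0271% of the loops of AAV dhIDR replicate 1 and 0.126% of those of AAV WT replicate 1 were shared.

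Single anchors were looked at as well, since a match of whole loops needs both anchors to overlap. Of 26 anchors that AAV loops placed in the array, 15 (57.7%) overlapped a merged ZT10 anchor, against 7.06% of all anchors in these libraries. They were 7 of 11 and 1 of 2 in AAV dhIDR, and 2 of 4 and 5 of 9 in AAV WT, while at ZT22 it was 0 of 2. Merged ZT10 anchors cover 24.2% of the array, 70.2 of 290 kb, which follows in part from the choice of the cluster. This cover was not set against that elsewhere in the genome, so the higher share in the array is no independent finding. In AAV dhIDR replicate 2, a loop of 4 PETs joined 93162231 to 93162754 beside Ces1d to 93399885 to 93400466, in the place beyond Ces1h where ZT10 loops ended, though no ZT10 loop joined these 2 anchors.

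Among the 13 other carboxylesterase genes, 11 had a ZT10 PET, against 52.1% of 21887 protein-coding genes. Of the 13, 1 had the 30 PETs a call needs, as did 3721 of all genes. It was Ces2h, with 31 at ZT10 and none listed in any other library. Ces4a had 18 PETs at ZT10 against 11 at ZT22, 22 and 0 in AAV dhIDR and 3 and 8 in AAV WT. Ces2a had 9 at ZT10 against 0 at ZT22, 7 and 0 in AAV dhIDR and 4 and 3 in AAV WT. Apart from Ces1a, Ces1h and Ces5a, these genes form another array farther along the same chromosome.

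ZT10 against ZT22 counts were 16 against 0 at Ces2c, 15 against 3 at Ces2f, 12 against 3 at Ces2g, 10 against 0 at Ces2b, 9 against 3 at Ces3a, 7 against 0 at Ces2e and 3 against 0 at Ces3b. In the AAV libraries Ces2f and Ces2g had 6 each in AAV WT replicate 2, Ces2b, Ces2c and Ces3b had 3 each there, Ces3a had 3 in AAV dhIDR replicate 2, and the rest were 0. Ces5a had no PET in either knock-in or AAV dhIDR library, and 3 and 4 in AAV WT. Ces1a had 8 at ZT10 against 0 at ZT22, 8 and 10 in AAV dhIDR, and 3 and 0 in AAV WT. It shared 1 loop with the members at ZT10, 1 in AAV dhIDR replicate 1 and 1 in AAV dhIDR replicate 2.

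Per length, the Ces1 members held 18.7 PETs per 10 kb of window at ZT10, against 5.11 for the 10 Ces2, Ces3 and Ces4a genes, which form the other array. Both anchors lay inside the array for 63 of 74 Ces1 loops (85.1%), against 24 of 28 (85.7%) for the other array. Median spans were 44.9 kb at Ces1 and 30.9 kb at the other array. At ZT22 the counts ran the other way, with 8 PETs for the Ces1 members against 17 for the other array. No test was made of these differences, since the members were chosen for their counts.

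The genes on either side of the array had few PETs. Of 9 protein-coding genes within 500 kb, Ces1a and Ces1h among them, 4 had a ZT10 PET, 17 in all. A ZT10 PET was listed for 52.1% of all protein-coding genes. The median at ZT10 was 0 PETs for the 9 genes and 3 over all genes. Gnao1 shared a loop with the cluster, the loop of 3 PETs from Ces1g in AAV WT replicate 1, and had 3 PETs at ZT10. Of 29 genes of ester and lipid hydrolysis and VLDL assembly, 16 had 30 PETs over both knock-in libraries and 10 were called higher at ZT10 and 0 lower, with a median log2 ratio of 2.27, against 39.5% of genes and a median of 1.40. Their top 3 by ZT10 PETs were the paraoxonase genes Pon1 (389 against 15 at ZT22) and Pon3 (274 against 9), and Mgll, the monoacylglycerol lipase gene (192 against 19). In AAV dhIDR Pon1 had 6 and 0 PETs against 7 and 9 in AAV WT, Pon3 12 and 10 against 10 and 7, and Mgll 3 and 12 against 10 and 18.

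The genes whose pattern over the 6 libraries lay nearest to the cluster, by Euclidean distance in log2 of PETs per 10000 (constant 0.1), were Sh3pxd2a (distance 1.12), Ppargc1b (1.29), Irs1 (1.34), Zbtb16 (1.35) and Crls1 (1.36). Sh3pxd2a had 366 PETs at ZT10 against 12 at ZT22, 32 and 11 in AAV dhIDR and 12 and 14 in AAV WT. The cluster itself had 425 against 8, 34 and 8, and 14 and 27. The other 4 had 351 to 418 PETs at ZT10 against 3 to 18 at ZT22.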

How the data were processed

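Liver of 6 anti-HA in-situ ChIA-PET libraries was compared. Per the labels' protocols, nuclei were fixed with formaldehyde and EGS, cut with AluI, re-ligated, pulled down, tagmented with Tn5 and amplified by PCR. The deposited files hold 1 row per loop with raw PET counts, not normalized and not pooled, on the mm10 build, as the submitters' processing notes state. The aligner, the treatment of reads that map to several places, the duplicate filter and the loop caller are not given in the sources used here, so reads from near-identical Ces1 paralogs may be assigned with error. Starts were shifted by 1 to count from 1, and mitochondrial loops were left out. Genes came from RefSeq's GRCm38.p6 tables. All 6 members matched the gene table and 4 the promoter table (5 windows).

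Gene counts (body plus 5 kb) of the AAV libraries were fitted with edgeR 4.0.16 (TMM, filterByExpr, quasi-likelihood test, Benjamini-Hochberg at 0.05, R 4.3.3). The SE given with edgeR values is approximate. It was derived as the absolute log2 difference divided by the square root of the F statistic of the test. Knock-in libraries have no replicate and were given ratios of shares with exact Clopper-Pearson intervals. Replicate numbers were not treated as pairs in the main fit (across 5339 genes, replicate differences of the groups correlated at -0.0022). With counts this sparse, that value cannot show whether replicates of the same number were handled together. Groups and replicate numbers came from the labels. The alternatives were other windows, PET minimums, anchor widths, spans, scalings, folds and pseudocounts, DESeq2 1.42.0, no filter, a replicate block and each replicate left out. Named items were all members, carboxylesterases with a PET, the 3 lipid-list genes with most ZT10 PETs, flanking genes sharing a loop, 5 nearest patterns, 5 loops (a tie made 6) and 5 anchors by rank, and matched loops. The members and lists were chosen with earlier results of these data known.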

Additional observations from a re-analysis of the deposited data

How the results depend on the processing

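Both anchors lay in the array for 85.3 to 89.7% of ZT10 loops under all 5 alternatives, against 85.1%. The log2 ratio of ZT10 over ZT22 stayed above 0 in all 7 and was 3.11 with loops of at least 4 PETs (317 against 5 PETs) and 2.98 relative to the median gene. The choice of members used this contrast, so its sign is no independent finding. Genes called higher at ZT10 numbered 1468 (599 lower), 751 (959 lower) relative to the median gene and 605 (148 lower) at 16-fold. The share of calls that were higher was 71.0%, and 94.5% with at least 4 PETs, 98.2% with wide anchors, 91.1% within 500 kb and 45.9% with at least 10 PETs over both. The log2 ratio of the cluster between AAV dhIDR and AAV WT, -0.10, was 0.85 within 500 kb (20 against 10 PETs) and -1.42 to 0.52 with a replicate left out. With wide anchors it has no value, since AAV dhIDR had no PET left. AAV loops shared with ZT10 were 100% with wide anchors (1 of 1) and 28.6% within 500 kb (2 of 7). edgeR called 1 of 4754 genes, 3 with a 25-kb window, 3 with no filter, 3 with a replicate block and 2 to 6 with a replicate left out, where a lone library is assumed to vary like the other group. It called 0 with at least 4 PETs (69 at an unadjusted p under 0.05), 0 with wide anchors (0 of 5 genes) and 0 within 500 kb (68). DESeq2 called 1. No member was called in any fit that tested one, and none could be tested over gene bodies alone, with at least 4 PETs, with wide anchors or within 500 kb. Ces1g, at -0.50, reversed to 0.45 without AAV dhIDR replicate 2 and ranged from -6.33 to 0.45 with a replicate left out. It was -1.56 with the replicate block. The cause of these changes was not tested. Unlisted loops and the 0 to 16 PETs per member limit what the AAV libraries can show.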
